A study of Saccharomyces cerevisiae with 17 samples.

Results

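PHO84, PHO89 and PHO86 are the genes of the 2 high-affinity phosphate transporters of Saccharomyces cerevisiae and of the protein that brings one of them out of the endoplasmic reticulum (ER). They were chosen by name and function, with earlier results of these data known, and make up 3 of the 7125 features in the deposited table, measured in all 17 libraries. Pho84 takes up phosphate together with protons and Pho89 together with sodium. Pho86 stays in the ER and is needed to package Pho84 for export to the plasma membrane.

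When phosphate runs short, the cyclin-dependent kinase Pho80-Pho85 is inhibited by Pho81, the transcription factor Pho4 stays in the nucleus, and with its partner Pho2 it switches on the genes of the PHO regulon. PHO84, PHO89 and PHO86 belong to this regulon, as do the secreted acid phosphatases (PHO5, PHO11, PHO12), the polyphosphate polymerase subunits (VTC1 to VTC4) and SPL2, whose small protein restrains low-affinity phosphate uptake. PHO84 is also known for an antisense RNA that is a substrate of the nuclear exosome, the RNA-degrading complex that contains Rrp6.

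The study sequenced mRNA of haploid yeast cultures of mating type a kept for 60 min at 30 °C in synthetic medium (YNB) with 7.2 mM or 0 mM potassium phosphate, after growth at 7.2 mM. Every strain was BY4741 or a derivative of it, and BY4741 itself lacks HIS3, LEU2, MET17 and URA3, so the medium of every culture held histidine, leucine, methionine and uracil. Experiment 1 had spl2Δ at 0 mM (3 libraries), BY4741 at 0 mM (3), spl2Δ at 7.2 mM (2), bmh1Δ at 7.2 mM (1) and BY4741 at 7.2 mM (3). BMH1 encodes the major 14-3-3 protein, a phosphoprotein-binding adaptor. Experiment 2 had rrp6Δ (2) and BY4741 (1), both at 7.2 mM, and experiment 3 had BY4741 ΔP (1), whose SPL2 promoter is missing the stretch named block P, and BY4741 (1), both at 7.2 mM. The sample labels give no experiment number. The BY4741 libraries B and A-1 were assigned to experiments 2 and 3 from the lettering of the labels together with the series' design text. Whether each deletion strain was more than a single clone is not given in the sources used here.

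Sequence before the 3 genes was searched for the core of the Pho4 site, because all of them are known Pho4 targets and moved together in the phosphate comparison below. The search covered the 1000 bases before each start codon in the RefSeq R64 genome, on both strands, for the palindrome CACGTG and for CACGTT; no 6-base stretch can match both. Positions give the first base of the match before the start codon, and capitals mark the match in 30 bases read along the gene's strand.

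PHO84 at 880 bases: ataaaaaagtgtCACGTGataaaaatcact
PHO84 at 587 bases: atcagtattacgCACGTTggtgctgttata
PHO84 at 436 bases: atttaatagttcCACGTGgacgtgttattt
PHO84 at 414 bases: tgttatttccagCACGTGgggcggaaatta
PHO84 at 262 bases: agctagattaaaAACGTGcgtattactcat
PHO89 at 463 bases: tttcgtcatcccCACGTTgtgccattaatt
PHO89 at 323 bases: atgacaatgcagCACGTGggagacaaatag
PHO86 at 496 bases: atacaacacacaCACGTTaagagacgcaaa
PHO86 at 190 bases: ccagcgcgcccgCACGTGctctttatggaa

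The PHO84 (YML123C) stretches lie on the minus strand at chrXIII:26663-26692, chrXIII:26370-26399, chrXIII:26219-26248, chrXIII:26197-26226 and chrXIII:26045-26074, in the order printed. The last of them matches CACGTT on the strand opposite to the gene. Those of PHO89 (YBR296C) lie on the minus strand at chrII:798968-798997 and chrII:798828-798857, and those of PHO86 (YJL117W) on the plus strand at chrX:192023-192052 and chrX:192329-192358. PHO84 thus had 3 matches to CACGTG and 2 to CACGTT, whereas PHO89 and PHO86 each had 1 of each kind. Of 5996 nuclear protein-coding genes with a full window, 10.8% had at least 1 CACGTG, 28.5% at least 1 CACGTT and 3.44% both. At least 3 CACGTG occurred before 16 genes (0.267%), and 5 or more matches of either kind before 3 genes (0.05%). A match is a stretch of letters and not a measured binding site, and no position of these genes in the authors' own genome build was used.

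**Figure D1:**
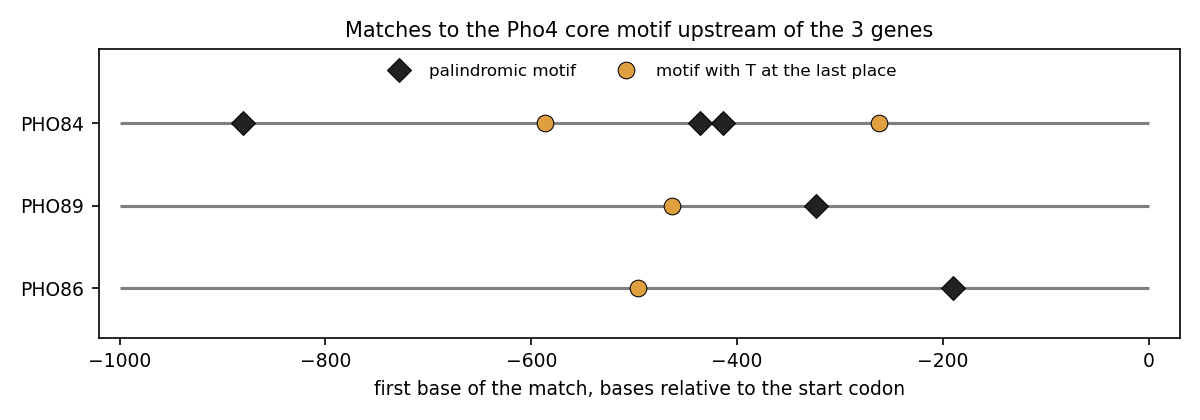
Positions of matches to the Pho4 core motif in the 1000 bases before the start codon of each gene, on the x axis in bases (0 is the start codon); diamonds are the palindromic motif and circles the motif with T at the last place, on either strand. PHO84 has 5 matches, PHO89 and PHO86 have 2 each.

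The libraries held 17456154 to 44667485 reads in the table, and 3 reads corresponded to 0.0672 to 0.172 RPM (reads scaled to a common library total). PHO84 was never below 708 reads and PHO86 never below 2200, but PHO89 was as low as 50. No reads were listed for LEU2, MET17 or URA3 in any library. The mating type a genes STE2 (420 to 624 RPM), MFA1 (52.7 to 439 RPM), MFA2 (92.5 to 606 RPM), BAR1 (99.2 to 180.5 RPM) and ASG7 (20.2 to 72.5 RPM) were present throughout. Of the mating type alpha genes MF(ALPHA)1 did not exceed 0.565 RPM, MF(ALPHA)2 8.9 RPM, STE3 11.9 RPM and SAG1 44.2 RPM. SPL2 was at 0 to 0.21 RPM in the 5 spl2Δ libraries, BMH1 at 1.46 RPM in bmh1Δ against 957 to 1051 RPM in BY4741 of experiment 1, and RRP6 at 0 in both rrp6Δ libraries against 57.8 RPM in BY4741 of experiment 2. The series' design text and the sample labels disagree on spl2Δ: by the text 3 cultures had phosphate and 2 had none, by the labels 2 had phosphate and 3 had none, and grouping followed the labels.

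Removal of phosphate raised all 3 genes in BY4741. PHO84 was at 2200, 2183 and 2297 RPM in BY4741 at 0 mM (libraries 14, 16 and 17), against 193, 197 and 189 RPM in BY4741 at 7.2 mM (libraries 11, 10 and 13). PHO89 was at 88.66, 88.96 and 93.2 RPM in BY4741 at 0 mM, against 5.22, 5.17 and 4.95 RPM in BY4741 at 7.2 mM. PHO86 was at 258, 258 and 266 RPM in BY4741 at 0 mM, against 120, 127 and 123.5 RPM in BY4741 at 7.2 mM. For each gene every library without phosphate was above every library with it, and replicates of a group lay close together. Each library is a pool of cells, so a higher level in every cell and more cells with the transcript cannot be told apart.

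The means at 0 mM exceeded those at 7.2 mM in BY4741 by 11.5-fold for PHO84, 17.7-fold for PHO89 and 2.11-fold for PHO86. On the log2(RPM + 1) scale, which is used for every test and understates changes of low genes, the differences were 3.52 ± 0.05 for PHO84 (SE; limma adjusted p = 1.94e-16), 3.90 ± 0.12 for PHO89 (SE; limma adjusted p = 3.81e-13) and 1.07 ± 0.05 for PHO86 (SE; limma adjusted p = 1.17e-10). So PHO89, which had the lowest level of the 3, had the highest fold, while PHO84 gained 2034 RPM, PHO86 137 RPM and PHO89 85.2 RPM. All 3 genes passed as higher and had groups that did not overlap, in a comparison where 60.9% of 6015 features passed as higher, 6.68% passed as lower, and 63.5% were higher without overlap. That background depends on the scaling, since the median feature was 0.21 higher at 0 mM by library total and 0.01 higher after TMM (trimmed mean of M values) scaling, and 90.1% of the calls were higher by library total against 47% after TMM. With TMM the differences were 3.31 for PHO84, 3.70 for PHO89 and 0.86 for PHO86, and all stayed past the threshold. Libraries with and without phosphate could share an overnight culture by the growth protocol, which the tests do not take into account. P-values measure the spread between libraries within groups. For a group of 1 library that spread is taken from the other groups of the model.

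**Figure D2:**
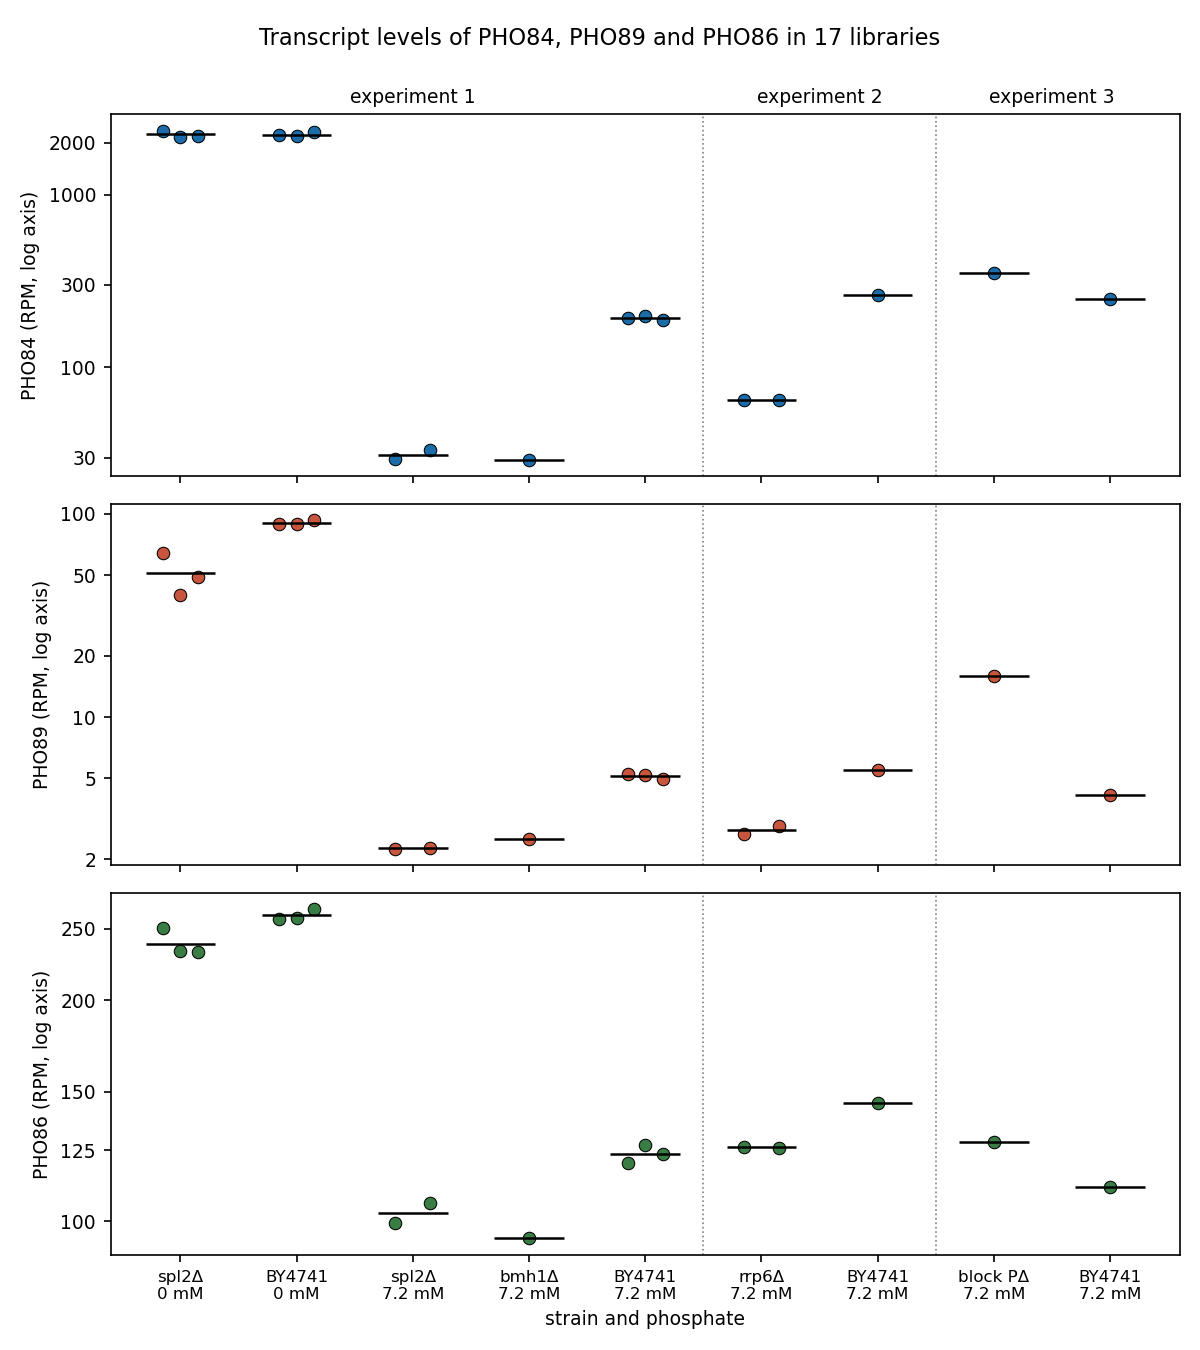
Levels of the 3 genes in RPM (y axis, logarithmic) in each of the 17 libraries (points), by strain and phosphate (x axis); horizontal lines are group means, dotted lines part the 3 experiments and block PΔ is BY4741 ΔP. PHO84 stands at 2151 to 2346 RPM in all 6 libraries without phosphate, and at 29.2 to 33.1 RPM in spl2Δ and bmh1Δ at 7.2 mM.

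Removal of phosphate raised all 3 genes in spl2Δ as well, PHO84 by the highest fold. PHO84 was at 2346, 2151 and 2194 RPM in spl2Δ at 0 mM (libraries 12, 19 and 20), against 29.4 and 33.1 RPM in spl2Δ at 7.2 mM (libraries 7 and 18). PHO89 was at 64.2, 40.01 and 48.7 RPM in spl2Δ at 0 mM, against 2.24 and 2.27 RPM in spl2Δ at 7.2 mM. PHO86 was at 250.5, 233 and 232 RPM in spl2Δ at 0 mM, against 99.6 and 106 RPM in spl2Δ at 7.2 mM. No group overlapped its counterpart for any of the 3 genes. The ratio of means was 71.4-fold for PHO84, 22.6-fold for PHO89 and 2.32-fold for PHO86.

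The log2 differences between 0 mM and 7.2 mM in spl2Δ were 6.12 ± 0.06 for PHO84 (SE; limma adjusted p = 2.32e-19), 3.97 ± 0.13 for PHO89 (SE; limma adjusted p = 2.28e-12) and 1.21 ± 0.05 for PHO86 (SE; limma adjusted p = 1.53e-10). In this comparison 57.3% of 6033 features passed as higher, 8.75% passed as lower, and 63.5% were higher without overlap, so the calls alone do not set the genes apart. Here too the median feature moved by 0.23 with library totals and by 0.00 after TMM, and the higher share of calls was 86.7% against 45.9%; with TMM the 3 differences were 5.88, 3.77 and 0.97, all past the threshold.

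The difference between the 2 responses was tested directly. For PHO84 the response in spl2Δ exceeded that in BY4741 by 2.60 ± 0.08 (log2; SE; 95% interval 2.42 to 2.77; limma adjusted p = 9.7e-12), the highest value among 6071 features, of which 6.8% passed as higher and 7.73% as lower. For PHO89 the difference of responses was 0.07 ± 0.17 (log2; SE; 95% interval -0.30 to 0.44; limma adjusted p = 0.826), and for PHO86 it was 0.14 ± 0.07 (log2; SE; 95% interval -0.02 to 0.29; limma adjusted p = 0.22). The intervals of PHO89 and PHO86 both lie below that of PHO84. PHO84 gained 2199 RPM in spl2Δ and 2034 RPM in BY4741, PHO86 gained 136 RPM in spl2Δ and 137 RPM in BY4741, and PHO89 gained 48.7 RPM in spl2Δ and 85.2 RPM in BY4741. The sign of the PHO89 value was not stable: it was -0.11 without spl2Δ library 12 and -0.31 with a pseudocount of 5. On the other side it was 0.29 with a pseudocount of 0.1, 0.33 with edgeR and 0.34 with DESeq2. None of the 18 alternatives passed the threshold.

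**Figure D3:**
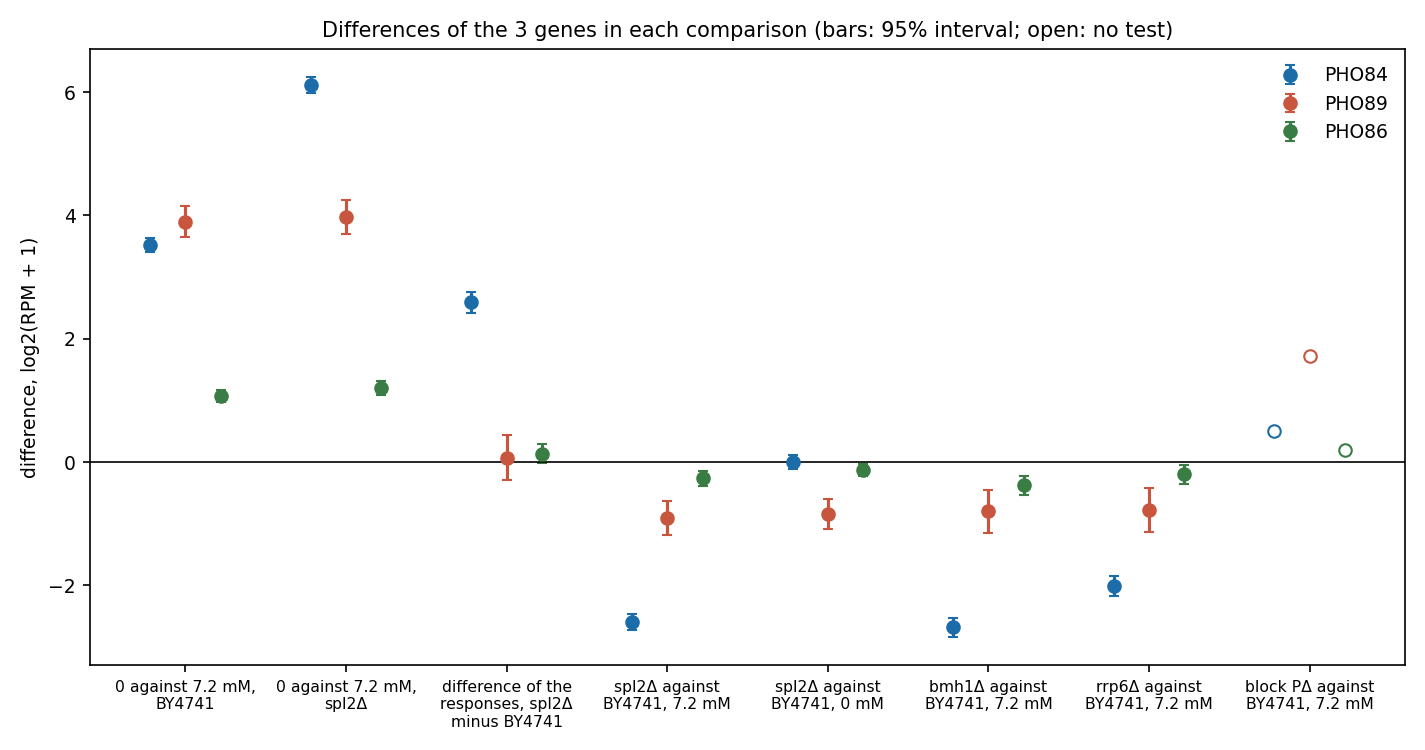
Differences of the 3 genes on the log2(RPM + 1) scale (y axis) in each comparison (x axis), with the first-named group minus the second; filled points carry 95% intervals from limma, and open points are the ΔP pair, which has 1 library a strain and no test. PHO84 has the widest range, with 6.12 for removal of phosphate in spl2Δ and -2.68 for bmh1Δ.

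With phosphate present, deletion of SPL2 lowered PHO84 far more than PHO89. PHO84 was at 29.4 and 33.1 RPM in spl2Δ at 7.2 mM, against 193, 197 and 189 RPM in BY4741 at 7.2 mM, which is 6.18-fold lower and a log2 difference of -2.59 ± 0.06 (SE; limma adjusted p = 4.8e-14). PHO89 was at 2.24 and 2.27 RPM in spl2Δ, against 5.22, 5.17 and 4.95 RPM in BY4741, which is 2.26-fold lower and a log2 difference of -0.91 ± 0.13 (SE; limma adjusted p = 0.00202). PHO86 was at 99.6 and 106 RPM in spl2Δ, against 120, 127 and 123.5 RPM in BY4741, which is 1.2-fold lower and a log2 difference of -0.26 ± 0.05 (SE; limma adjusted p = 0.0439). None of the 3 genes had overlapping groups. Only 0.283% of 6002 features passed as lower and 0.217% as higher, while 15.9% were lower without overlap; higher calls were 43.3% of all calls by library total and 57.1% after TMM.

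The PHO86 call at 7.2 mM was marginal, with limma adjusted p = 0.0561 after TMM (difference -0.24), 0.0668 without BY4741 library 11, 0.0645 without library 10, 0.177 without library 13 and 0.4 without spl2Δ library 7. The PHO89 call was lost with a pseudocount of 5 (limma adjusted p = 0.104) and with edgeR on the recovered reads (adjusted p = 0.117), where its log2 fold change was -1.16.

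Without phosphate PHO84, which fell most with phosphate, did not differ detectably between the strains, and PHO89 was again lower in spl2Δ. PHO84 was at 2346, 2151 and 2194 RPM in spl2Δ at 0 mM, against 2200, 2183 and 2297 RPM in BY4741 at 0 mM. These groups overlapped, with a log2 difference of 0.00 ± 0.05 (SE; 95% interval -0.11 to 0.12; limma adjusted p = 0.987). The sign of that value changed with the libraries used: it was -0.04 without spl2Δ library 12, -0.01 without BY4741 library 14 and -0.01 without BY4741 library 16.

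PHO89 was at 64.2, 40.01 and 48.7 RPM in spl2Δ at 0 mM, against 88.66, 88.96 and 93.2 RPM in BY4741 at 0 mM. All spl2Δ libraries were below all BY4741 libraries, by 1.77-fold in the means and -0.84 ± 0.12 on the log2 scale (SE; limma adjusted p = 0.000494). They were also the most scattered group of this gene, with a coefficient of variation of 24.1% in spl2Δ against 2.8% in BY4741. Leaving out single libraries kept the difference between -1.02 and -0.68 and past the threshold each time. PHO86 was at 250.5, 233 and 232 RPM in spl2Δ, against 258, 258 and 266 RPM in BY4741, without overlap, but its log2 difference of -0.13 ± 0.05 did not pass (SE; 95% interval -0.23 to -0.02; limma adjusted p = 0.094). In this comparison 7.44% of 6031 features passed as lower, 5.64% passed as higher, and 20.1% were lower without overlap.

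The single bmh1Δ library resembled spl2Δ at 7.2 mM in all 3 genes. PHO84 was at 29.2 RPM in bmh1Δ against 193, 197 and 189 RPM in its BY4741 counterparts of experiment 1, 6.6-fold lower, with a log2 difference of -2.68 ± 0.08 (SE; limma adjusted p = 1.02e-12). PHO89 was at 2.51 RPM in bmh1Δ against 5.22, 5.17 and 4.95 RPM in BY4741, 2.04-fold lower, with a log2 difference of -0.80 ± 0.16 (SE; limma adjusted p = 0.000583). PHO86 was at 94.8 RPM in bmh1Δ against 120, 127 and 123.5 RPM in BY4741, 1.3-fold lower, with a log2 difference of -0.38 ± 0.07 (SE; limma adjusted p = 0.000248). The bmh1Δ library lay below every BY4741 library for each gene, and in these tests it is assumed to vary like the other groups. SPL2 itself was at 2.26 RPM in bmh1Δ, against 20.6 ± 0.4 RPM in BY4741 (SD, n = 3).

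Many genes were lower in that library, which is the background to read these values against: 48.8% of 5987 features passed as lower, 15.2% passed as higher, and 64.2% were lower without overlap. By library total the median feature was -0.22 and higher calls were 23.7% of all calls, whereas after TMM the median was 0.01 and the higher share was 52.3%. After TMM, PHO84 was at -2.45 and PHO89 at -0.63, both still past the threshold, but PHO86 was at -0.14 with limma adjusted p = 0.0737. Against the 5 BY4741 libraries of all experiments PHO84 stayed past the threshold, while limma adjusted p was 0.0627 for PHO89 (difference -0.77) and 0.0959 for PHO86 (difference -0.40); with edgeR the adjusted p was 0.0703 for PHO89 and 0.0932 for PHO86.

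Deletion of RRP6, the nuclear exosome's exonuclease, also lowered PHO84 with phosphate present. PHO84 was at 64.5 and 64.9 RPM in rrp6Δ, against 263 RPM in BY4741 of experiment 2, 4.07-fold lower, with a log2 difference of -2.01 ± 0.08 (SE; limma adjusted p = 2.34e-12), the lowest value among the 6039 features tested, which do not include the deleted RRP6. PHO89 was at 2.66 and 2.92 RPM in rrp6Δ against 5.48 RPM in BY4741, 1.96-fold lower, with a log2 difference of -0.77 ± 0.17 (SE; limma adjusted p = 0.0019). PHO86 was at 126.1 and 126.0 RPM in rrp6Δ against 145 RPM in BY4741, 1.15-fold lower, with a log2 difference of -0.20 ± 0.07 (SE; limma adjusted p = 0.0359). Both rrp6Δ libraries lay below the BY4741 library for each gene. That library is alone in its group, so these errors and p-values take its spread from the other groups of the model. In this comparison 24.6% of 6039 features passed as lower, 15.9% passed as higher, and 54.5% were lower without overlap.

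The PHO86 value in rrp6Δ rests on the 1 BY4741 library of that experiment. Set against the 5 BY4741 libraries of all experiments it was 0.01 with limma adjusted p = 0.908, and it also missed the threshold without rrp6Δ library C (limma adjusted p = 0.0886) and without library D (0.0816). PHO84 and PHO89 kept their calls in each of those cases.

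In BY4741 ΔP, the strain without block P, all 3 values were above those of its BY4741 counterpart, PHO89 most. PHO89 was at 16.0 RPM in BY4741 ΔP (585 reads), against 4.14 RPM in BY4741 of experiment 3 (185 reads), a ratio of 3.86 (exact 95% interval 3.27 to 4.58). PHO84 was at 354 RPM in BY4741 ΔP, against 249 RPM in BY4741, a ratio of 1.42 (exact 95% interval 1.39 to 1.46). PHO86 was at 128 RPM in BY4741 ΔP, against 111.5 RPM in BY4741, a ratio of 1.15 (exact 95% interval 1.11 to 1.2). These intervals cover counting error only, and with 1 library a strain there is no test and no replicate check.

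On the log2(RPM + 1) scale the ΔP values were 1.73 for PHO89, 0.51 for PHO84 and 0.20 for PHO86. PHO89 was the only member past a 2-fold rise, which 1.28% of 5785 features reached, and 0.346% were as high as PHO89. The ΔP library was above all 5 BY4741 libraries at 7.2 mM for PHO84 (189 to 263 RPM) and PHO89 (4.14 to 5.48 RPM), but inside their range for PHO86 (111.5 to 145 RPM). Against the mean of those 5 libraries the log2 values were 1.51 for PHO89, 0.71 for PHO84 and 0.04 for PHO86. SPL2 was at 33.8 RPM in BY4741 ΔP, against 23.5 RPM in BY4741 of that experiment and 36.1 RPM in BY4741 of experiment 2.

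Among the 5 BY4741 libraries at 7.2 mM of the 3 experiments, the highest over the lowest value was 1.39 for PHO84, 1.32 for PHO89 and 1.3 for PHO86. They include the 3 libraries of experiment 1, so this range cannot be narrower than that of experiment 1 alone. Ordered by level, PHO84 ran from spl2Δ and BY4741 at 0 mM, which overlapped, through BY4741 ΔP and BY4741 at 7.2 mM to rrp6Δ, and then to spl2Δ and bmh1Δ at 7.2 mM. The last of these differed by less than the spread of spl2Δ (31.2 ± 2.6 RPM in spl2Δ, SD, n = 2, and 29.2 RPM in bmh1Δ). PHO89 had BY4741 at 0 mM above spl2Δ at 0 mM, then BY4741 ΔP, the BY4741 libraries at 7.2 mM, and rrp6Δ, bmh1Δ and spl2Δ at the low end within 2.24 to 2.92 RPM. PHO86 had the same pair on top, and at 7.2 mM rrp6Δ (126 RPM) lay inside the range of BY4741 of experiment 1, with spl2Δ and bmh1Δ again lowest.

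Per kilobase of coding sequence (1764 bases in PHO84, 1725 in PHO89 and 936 in PHO86), the levels of the 3 genes could be compared with each other. In spl2Δ at 0 mM they were 1264 RPM per kb for PHO84, 255 for PHO86 and 29.5 for PHO89, and in BY4741 at 0 mM they were 1262, 279 and 52.3 RPM per kb in the same order. In spl2Δ at 7.2 mM PHO86 led with 110 RPM per kb, against 17.7 for PHO84 and 1.31 for PHO89. In BY4741 at 7.2 mM of experiment 1 PHO86 was at 132 RPM per kb, PHO84 at 109.5 and PHO89 at 2.96. PHO84 was thus the most abundant of the 3 transcripts without phosphate, and PHO86 was so in spl2Δ, bmh1Δ, rrp6Δ and BY4741 of experiments 1 and 2 with phosphate.

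The ratio of PHO84 to PHO86, the cargo to its exit factor, separated the groups widely. It was 4.97, 4.9 and 5.01 in spl2Δ at 0 mM and 4.52, 4.48 and 4.59 in BY4741 at 0 mM. At 7.2 mM it was 0.157 and 0.166 in spl2Δ, 0.164 in bmh1Δ, and 0.853, 0.823 and 0.812 in BY4741 of experiment 1. The transcript of the exit factor was therefore several times as abundant per kb as that of its cargo in spl2Δ and bmh1Δ with phosphate, and a fraction of it in every library without phosphate. In experiment 2 the ratio was 0.271 and 0.273 in rrp6Δ against 0.965 in BY4741, and in experiment 3 it was 1.46 in BY4741 ΔP against 1.18 in BY4741.

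The ratio of PHO84 to PHO89, the proton-coupled to the sodium-coupled transporter, followed another order. It was 35.7, 52.6 and 44.1 in spl2Δ at 0 mM, above 24.3, 24.0 and 24.1 in BY4741 at 0 mM. At 7.2 mM the strains stood the other way round, with 12.8 and 14.2 in spl2Δ and 11.4 in bmh1Δ, below 36.2, 37.3 and 37.4 in BY4741 of experiment 1. No library of spl2Δ overlapped BY4741 at the same phosphate level. It was 23.7 and 21.7 in rrp6Δ against 47.0 in BY4741 of experiment 2, and 21.6 in BY4741 ΔP against 58.7 in BY4741 of experiment 3. These ratios are given as descriptions, with no test.

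**Figure D4:**
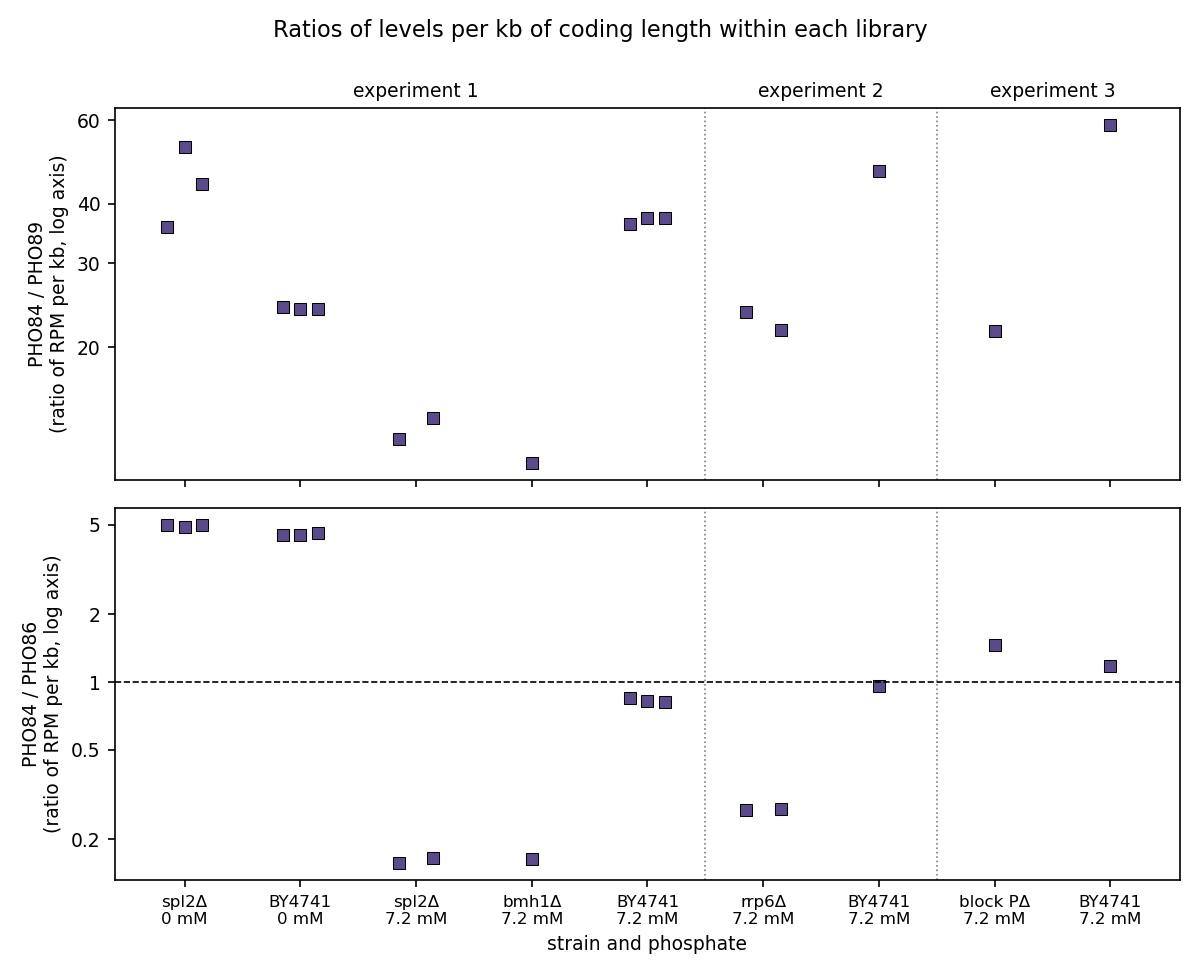
Ratios of RPM per kb (y axes, logarithmic) of PHO84 to PHO89 and of PHO84 to PHO86 within each of the 17 libraries (points), by strain and phosphate (x axis); dotted lines part the experiments, block PΔ is BY4741 ΔP and the dashed line marks a ratio of 1. The ratio to PHO86 is 4.48 to 5.01 without phosphate and 0.157 to 0.166 in spl2Δ and bmh1Δ at 7.2 mM.

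Likeness of pattern was measured over the 9 groups, as the root-mean-square difference between group means of log2(RPM + 1) after each gene was centred on its own mean, among 5364 features with a mean of at least 10 RPM. Nearest to PHO84 were PHO12 (0.642), PHM6 (0.659), VTC3 (0.716), PHO89 (0.857) and PHO11 (0.961). Nearest to PHO89 were PHM6 (0.371), PHO11 (0.421), VTC3 (0.454), PHO12 (0.507) and VTC4 (0.55), with PHO84 at rank 7. Both transporters thus had other PHO genes as their nearest patterns.

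PHO86 did not share that neighbourhood: its nearest patterns were FMP45 (0.132), ATG22 (0.139), SER33 (0.164), SFK1 (0.185) and HSP31 (0.189), none of which is on the list of PHO genes used here. Of the 5364 features PHO84 was at rank 5280 and PHO89 at rank 5200 from PHO86, whereas PHO86 was at rank 37 from PHO84 and 34 from PHO89. This measure weighs the size of a change as well as its direction.

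Among 18 other genes of the PHO regulon, all 18 rose in BY4741 without phosphate, with a median of 2.01 against 0.21 over all features, of which 60.9% passed as higher. PHM6 (4.01 ± 0.11, SE), PHO5 (3.89 ± 0.10, SE), SPL2 (3.79 ± 0.08, SE) and PHO11 (3.71 ± 0.10, SE) rose most, so the values of PHO84 (3.52) and PHO89 (3.90) stood near the top of the list and that of PHO86 (1.07) below its median. In spl2Δ without phosphate, where 57.3% of all features passed as higher, all 17 that could be tested rose (16 after TMM). Their median was 1.99 against 0.23. PHO12 (4.50 ± 0.11, SE), PHM6 (4.36 ± 0.12, SE) and VTC3 (4.17 ± 0.07, SE) led, and PHO84 at 6.12 was above all of them. For the difference between the responses 5 of 18 passed as higher and 4 as lower, with SPL2 itself among the lower. Of all features 6.8% passed as higher and 7.73% as lower. VTC3 (1.23 ± 0.10, SE), PHO12 (0.98 ± 0.15, SE) and VTC4 (0.81 ± 0.07, SE) were highest, against 2.60 for PHO84.

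With phosphate present, 10 of the 18 fell in spl2Δ and none rose, where 0.283% of all features passed as lower. The median of the list was -0.30 against -0.02 over all features. After SPL2, the deleted gene, PHO12 (-1.23 ± 0.11, SE), VTC3 (-1.20 ± 0.07, SE) and PHM6 (-1.12 ± 0.12, SE) fell most, each less than PHO84 (-2.59). Without phosphate, where 7.44% of all features passed as lower, 9 of the 18 fell in spl2Δ and none rose. SPL2 was again among them, and the median was -0.17 against -0.02. After SPL2, PHO5 (-0.97 ± 0.10, SE), PHM6 (-0.76 ± 0.11, SE) and GIT1 (-0.71 ± 0.09, SE) were lowest, beside -0.84 for PHO89 and 0.00 for PHO84. In bmh1Δ, where 48.8% of all features passed as lower, 13 fell and 1 rose (10 and 2 after TMM), with a median of -0.63 against -0.22, led by SPL2 (-2.73 ± 0.12, SE), PHM6 (-1.47 ± 0.15, SE) and VTC3 (-1.41 ± 0.09, SE). In rrp6Δ, where 24.6% of all features passed as lower, 13 fell and 2 rose, with a median of -0.54 against -0.08, led by PHO12 (-1.57 ± 0.15, SE), SPL2 (-1.52 ± 0.12, SE) and VTC3 (-1.42 ± 0.10, SE). PHO84 was lower than each of these genes in rrp6Δ, and close to SPL2 in bmh1Δ (-2.68). In BY4741 ΔP the median of the list was 0.28 against 0.00, with GPP2 (1.14), PHM7 (1.11) and PHM6 (0.88) highest and PHO89 (1.73) above them. The spl2Δ and bmh1Δ comparisons at 7.2 mM share the BY4741 libraries, so their likeness is not an independent result.

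**Figure D5:**
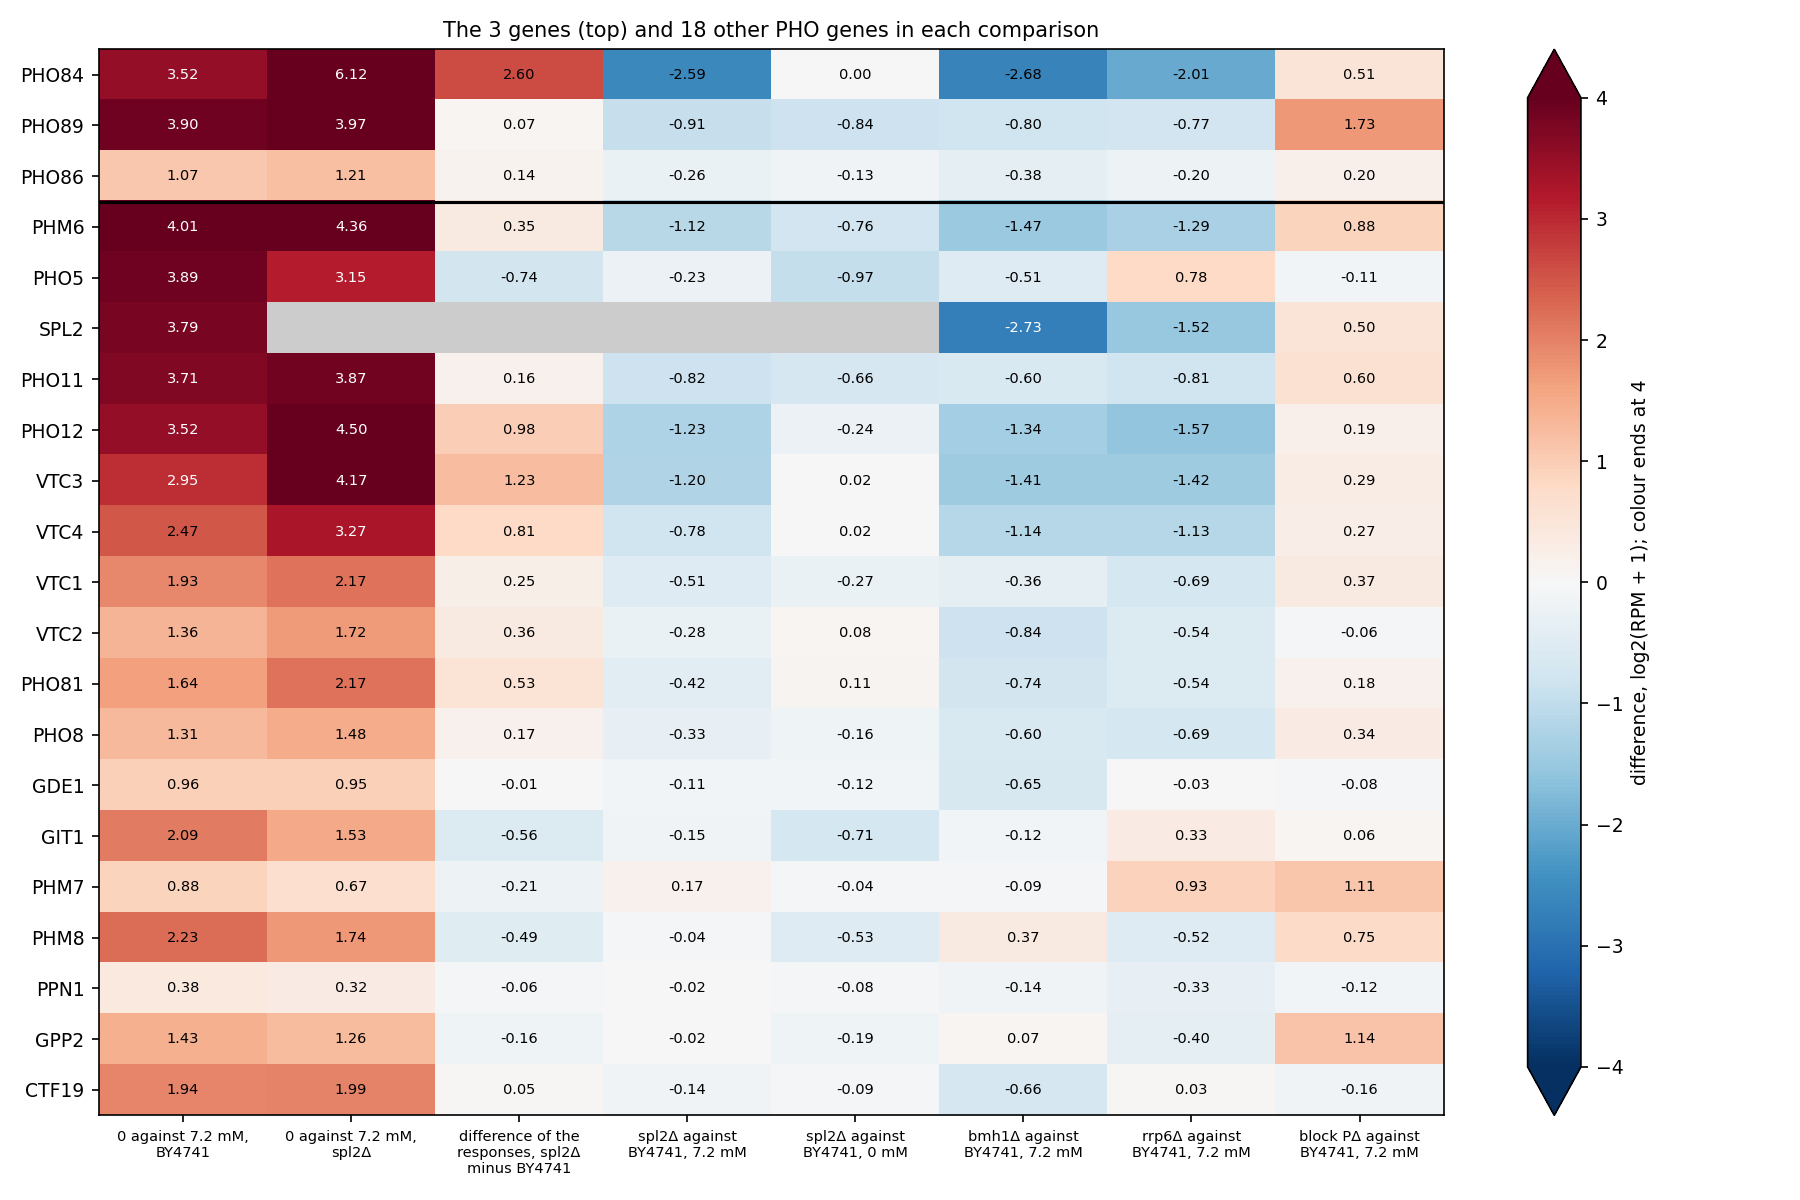
Differences on the log2(RPM + 1) scale (colour and printed value) of the 3 genes (top rows) and 18 other PHO genes (rows below) in each comparison (columns), first-named group minus the second; grey marks SPL2 where it is deleted and block PΔ is BY4741 ΔP. PHO84 is the lowest row of those shown in spl2Δ at 7.2 mM (-2.59) and rrp6Δ (-2.01).

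The regulators of the Pho4 switch had values below those of PHO84 and PHO89 without phosphate, but PHO81 had a higher one than PHO86. Of the 5 genes of the Pho4 switch (PHO2, PHO4, PHO80, PHO81 and PHO85), 4 rose without phosphate in BY4741 (2 after TMM), with a median of 0.33 against 0.21, and 4 rose in spl2Δ (2 after TMM), with a median of 0.31 against 0.23. These counts compare with 60.9% of all features that passed as higher in BY4741 and 57.3% in spl2Δ. PHO81, the inhibitor of the kinase, itself a Pho4 target and also one of the 18 PHO genes above, stood out with 1.64 ± 0.06 (SE) in BY4741 and 2.17 ± 0.06 (SE) in spl2Δ. It was also the 1 gene of the list past the threshold in spl2Δ at 7.2 mM (-0.42 ± 0.06, SE; limma adjusted p = 0.00239). None of the 5 passed with limma in spl2Δ at 0 mM (0 at an unadjusted p under 0.05, 0 with edgeR and 0 with DESeq2). In bmh1Δ, where 48.8% of all features passed as lower, PHO81 (-0.74 ± 0.08, SE), PHO4 (-0.73 ± 0.09, SE) and PHO2 (-0.41 ± 0.09, SE) fell. In rrp6Δ PHO81 fell (-0.54 ± 0.09, SE) while PHO85 rose (0.50 ± 0.08, SE), and after TMM 2 fell and 2 rose. Of all features 24.6% passed as lower and 15.9% as higher there.

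The 4 enzymes of inositol pyrophosphates, the molecules that report phosphate status to the pathway, all rose without phosphate in BY4741 (3 after TMM) with a median of 0.81 against 0.21, and all 4 rose in spl2Δ (3 after TMM) with a median of 0.69 against 0.23. Among all features 60.9% passed as higher in BY4741 and 57.3% in spl2Δ. VIP1, a kinase of this group, was highest with 1.15 ± 0.05 (SE) in BY4741 and 1.48 ± 0.06 (SE) in spl2Δ. None of the 4 passed with limma in spl2Δ at 7.2 mM (1 at an unadjusted p under 0.05, 0 with edgeR and 0 with DESeq2). In spl2Δ at 0 mM 1 fell, where 7.44% of all features passed as lower. In bmh1Δ 2 fell and 2 rose, where 48.8% of all features passed as lower and 15.2% as higher. In rrp6Δ 2 fell, where 24.6% of all features passed as lower.

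For removal of phosphate, the 7 genes listed as other phosphate transporters had smaller differences than the high-affinity pair. They are the low-affinity carriers PHO87 and PHO90, the vacuolar PHO91, the mitochondrial MIR1 and PIC2, the ER protein PHO88, and YBR287W. That PHO88 and YBR287W carry phosphate is not established here. In BY4741 without phosphate 4 rose and 1 fell (4 and 2 after TMM), with a median of 0.39 against 0.21, and the highest values were 0.92 ± 0.05 for YBR287W and 0.52 ± 0.06 for PHO87 (SE). Of all features 60.9% passed as higher there, and 57.3% in spl2Δ without phosphate. In spl2Δ 5 rose and 1 fell (3 and 2 after TMM), led by PHO87 (0.83 ± 0.07, SE), while PHO88 fell (-0.52 ± 0.06, SE). None of the 7 passed with limma in spl2Δ at 7.2 mM, where PHO84 fell by 2.59; unadjusted p was under 0.05 for 2, edgeR called 0 and DESeq2 called 2, PHO87 and PIC2. In spl2Δ at 0 mM 1 rose and 3 fell, in bmh1Δ 1 rose and 6 fell (1 and 3 after TMM), and in rrp6Δ 1 rose, PHO90 (0.32 ± 0.08, SE), and 2 fell. The share of all features that passed as lower was 7.44% in spl2Δ at 0 mM, 48.8% in bmh1Δ and 24.6% in rrp6Δ. The share that passed as higher was 5.64%, 15.2% and 15.9% in the same order.

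Of 8 ER packaging chaperones and cargo receptors of other membrane proteins, 7 were matched to the table. PHO86 was 1.07 higher in BY4741 without phosphate, where none of the 7 rose and SHR3, the packaging chaperone of amino acid permeases, fell (-0.18 ± 0.07, SE; limma adjusted p = 0.0333); all 7 fell after TMM. The median of the list was -0.04 against 0.21 over all features, of which 60.9% passed as higher and 6.68% as lower. In spl2Δ without phosphate, where 8.75% of all features passed as lower, 4 fell (6 after TMM) and none rose. By library total the 4 were ERV14 (-0.35 ± 0.13, SE), SHR3 (-0.33 ± 0.08, SE), EMP24 (-0.15 ± 0.06, SE) and CHS7 (-0.14 ± 0.06, SE). None passed with limma in spl2Δ at 7.2 mM (0 at an unadjusted p under 0.05, 0 with edgeR and 0 with DESeq2). In spl2Δ at 0 mM 2 fell, where 7.44% of all features passed as lower. In rrp6Δ 1 fell (1 fell and 1 rose after TMM), where 24.6% of all features passed as lower. In bmh1Δ, where 15.2% of all features passed as higher and 48.8% as lower, 4 rose and 1 fell (5 and 1 after TMM), whereas PHO86 was at -0.38 (-0.14 after TMM).

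The COPII coat, which forms the vesicles that leave the ER, gave 9 genes. In BY4741 without phosphate 7 rose by library total but none rose and 2 fell after TMM. The median of 0.22 was near that of all features (0.21), of which 60.9% passed as higher. In spl2Δ without phosphate, where 57.3% of all features passed as higher, 7 rose and 1 fell (6 and 1 after TMM). The median was 0.39 against 0.23, with the highest value in SEC16 (0.57 ± 0.07, SE). None passed with limma in spl2Δ at 7.2 mM (0 at an unadjusted p under 0.05, 0 with edgeR and 0 with DESeq2). In spl2Δ at 0 mM 4 rose and 1 fell, where 5.64% of all features passed as higher and 7.44% as lower. In bmh1Δ 8 fell and 1 rose (6 and 1 after TMM), with a median of -0.65 against -0.22 over all features, of which 48.8% passed as lower. In rrp6Δ, where 24.6% of all features passed as lower, 5 fell and none rose, led by SEC31 (-0.51 ± 0.11, SE).

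Of 8 genes for turnover of Pho84 or for signals it gives, 7 rose in BY4741 without phosphate by library total and 1 after TMM. The list's median of 0.23 was near that of all features (0.21), of which 60.9% passed as higher. Highest was GTR1 (0.76 ± 0.05, SE), a GTPase of the TORC1 pathway, and in spl2Δ without phosphate it was also highest (0.78 ± 0.06, SE). There 5 of the list rose (after TMM 4 rose and 1 fell), where 57.3% of all features passed as higher. None passed with limma in spl2Δ at 7.2 mM (1 at an unadjusted p under 0.05, 0 with edgeR and 0 with DESeq2). RSP5, a ubiquitin ligase, was the 1 gene past the threshold in spl2Δ at 0 mM (0.25 ± 0.06, SE), where 5.64% of all features passed as higher. In bmh1Δ 4 fell and 1 rose (3 and 2 after TMM), with a median of -0.29 against -0.22 over all features, of which 48.8% passed as lower. In rrp6Δ 2 fell and 1 rose, with a median of -0.16 against -0.08 over all features, of which 24.6% passed as lower and 15.9% as higher.

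Pho89 depends on a sodium gradient, and 7 of 8 sodium and cation transporter genes could be tested. In BY4741 without phosphate 5 rose by library total and none after TMM. The median of 0.21 was equal to that of all features, of which 60.9% passed as higher. ENA1, a sodium pump, had 0.37 ± 0.07 (SE) by library total. In spl2Δ without phosphate, where 57.3% of all features passed as higher, 6 rose (5 after TMM), led by the proton pump gene PMA1 (0.65 ± 0.07, SE). None passed with limma in spl2Δ at 7.2 mM (1 at an unadjusted p under 0.05, 0 with edgeR and 0 with DESeq2). In spl2Δ at 0 mM 1 rose, where 5.64% of all features passed as higher. All 7 fell in bmh1Δ (5 after TMM), with a median of -0.69 against -0.22 over all features, of which 48.8% passed as lower. In rrp6Δ, where 24.6% of all features passed as lower, 4 fell and TRK1, a potassium transporter, rose (0.61 ± 0.08, SE). PHO89 itself was 3.90 higher in BY4741 without phosphate.

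An RNA antisense to PHO84, YNCM0001W, is annotated in R64 across the whole gene on the other strand, and it is not a row of the table used here. The kit was stranded, but whether strand was used in counting is not given in the sources used here, so reads of PHO84 and of its antisense RNA cannot be told apart. Of 6 genes for RNA decay and for silencing at PHO84, 4 rose in BY4741 without phosphate by library total, and none rose and 2 fell after TMM; the median of 0.22 was near the 0.21 of all features, of which 60.9% passed as higher. In spl2Δ without phosphate, where 57.3% of all features passed as higher, all 6 rose (4 after TMM). The median was 0.39 against 0.23, and the histone deacetylase gene HDA1 led (0.47 ± 0.06, SE). None passed with limma in spl2Δ at 7.2 mM (1 at an unadjusted p under 0.05, 0 with edgeR and 0 with DESeq2). In spl2Δ at 0 mM 2 rose, where 5.64% of all features passed as higher. All 6 fell in bmh1Δ (4 after TMM), with a median of -0.58 against -0.22 over all features, of which 48.8% passed as lower. In rrp6Δ 5 could be tested because RRP6 is deleted. AIR2 of the TRAMP complex, a cofactor of the exosome, rose there (0.75 ± 0.10, SE) and HDA1 fell (-0.34 ± 0.08, SE). After TMM 1 rose and 2 fell. Of all features 15.9% passed as higher and 24.6% as lower in rrp6Δ.

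Genes next to the transporters were read in the same comparisons. TUB3, an alpha-tubulin gene 353 bases downstream of PHO84, differed by 0.14 ± 0.05 (SE; limma adjusted p = 0.0356) in BY4741 without phosphate, and by 0.30 ± 0.06 (SE; limma adjusted p = 0.00052) in spl2Δ, calls lost after TMM (limma adjusted p = 0.185 and 0.286). In bmh1Δ TUB3 fell by 0.50 ± 0.08 (SE; limma adjusted p = 5.7e-05; -0.27 after TMM), beside -2.68 for PHO84. YML122C, a reading frame 237 bases upstream of PHO84 with 0.58 to 4.5 RPM in group means, went the other way, with -0.39 ± 0.13 (SE; limma adjusted p = 0.0161) in BY4741 and -0.81 ± 0.15 (SE; limma adjusted p = 0.000235) in spl2Δ; in rrp6Δ it was 0.49 ± 0.20 (SE; limma adjusted p = 0.0565). PCA1, a metal transporter gene 298 bases downstream of PHO89, did not pass in BY4741 (0.13 ± 0.08, SE; limma adjusted p = 0.15); in spl2Δ it was 0.42 ± 0.09 higher (SE; limma adjusted p = 0.000714), a call lost after TMM (limma adjusted p = 0.0502). In bmh1Δ PCA1 fell by 0.59 ± 0.11 (SE; limma adjusted p = 0.000302; -0.37 after TMM), beside -0.80 for PHO89 (-0.63 after TMM). TYC1, the next gene upstream of PHO89 at 1600 bases, did not exceed 0.15 RPM in any group mean.

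Both neighbours of PHO86 were also higher in BY4741 without phosphate, where 60.9% of all features passed as higher and the median feature was 0.21 higher. YJL118W, 232 bases upstream, rose by 0.52 ± 0.07 (SE; limma adjusted p = 1.74e-05; 0.31 after TMM). NCA3, 393 bases downstream, rose by 0.57 ± 0.07 (SE; limma adjusted p = 9.77e-06; 0.37 after TMM). Both rises were smaller than that of PHO86 (1.07, and 0.86 after TMM). NCA3 was also at 22.7 RPM in BY4741 ΔP against 6.58 RPM in BY4741 of experiment 3 (log2 value 1.64), where PHO86 differed by 0.20. That BY4741 library was low for NCA3, against 17.3 RPM (mean) in BY4741 at 7.2 mM of experiment 1 and 13.2 RPM in experiment 2. In rrp6Δ YJL118W was higher by 0.34 ± 0.10 (SE; limma adjusted p = 0.0122), where PHO86 was at -0.20.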

How the data were processed

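The authors deposited 1 table of RPM values (reads scaled to a common library total) for 7125 features in 17 libraries. Per the labels' protocols, libraries came from mRNA by a stranded kit; no aligner, counter, genome build or strand setting is named in the sources at hand. Whole reads could be recovered from the deposited RPM (100% of values whole within 0.001 reads), at 17456154 to 44667485 reads per library.

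Under R 4.3.3, limma 3.58.1 (trended prior variance) tested log2(RPM + 1). A feature entered where 1 RPM or more was reached by a number of libraries equal to the smaller compared group, and by no fewer than 2. P-values were adjusted by Benjamini-Hochberg over all of them, two-sided, with a threshold of 0.05. The 12 libraries of experiment 1 shared 1 model (7 residual degrees of freedom); rrp6Δ was fitted with experiments 1 and 2 (8). Differences are RPM-based log2 values, first-named group minus the second; folds are ratios of mean RPM. The ΔP pair had no test. No pair of replicates agreed within sampling noise (mean chi-square 3.84 to 26.9).

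Named were the 3 genes, the 5 nearest patterns of each, their neighbours in R64 and up to 4 genes of each of 9 lists. These genes and lists were chosen with earlier results of these data known. Alternatives were TMM scaling, pseudocounts of 0.1 and 5, no filter, compared groups only, edgeR 4.0.16 and DESeq2 1.42.0 on the recovered reads, leaving out each library, and 5 BY4741 libraries as control.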

Additional observations from a re-analysis of the deposited data

Results flagged for a closer look

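On the log2 scale PHO84 responded differently to removal of phosphate in the 2 strains. Its log2 difference between 0 mM and 7.2 mM was 6.12 in spl2Δ and 3.52 in BY4741, and a test of the difference itself gave 2.60 ± 0.08 (SE; limma adjusted p = 9.7e-12; 3 and 2 libraries of spl2Δ, and 3 and 3 of BY4741). Leaving out each of the 11 libraries in turn gave 2.51 to 2.68, past the threshold in all 11 cases. The same libraries gave -2.59 for spl2Δ against BY4741 at 7.2 mM and 0.00 at 0 mM. The higher fold in spl2Δ thus restates its lower level with phosphate and is not a separate result. In RPM, PHO84 gained 2199 in spl2Δ and 2034 in BY4741.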

How the results depend on the processing

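PHO84 kept its direction and its side of the threshold in 86 of 89 alternative tests, PHO89 in 83 of 89 and PHO86 in 74 of 89. Those that did not, and the values that moved, are as follows, in log2 units, and the cause was not tested. For spl2Δ at 7.2 mM, PHO86 lost its call after TMM (-0.24), with the compared groups only (-0.26) and with edgeR (-0.24), and PHO89 with a pseudocount of 5 (-0.48) and with edgeR (-1.16). For bmh1Δ, PHO86 lost its call after TMM (-0.14), with edgeR (-0.15), with DESeq2 (-0.15) and against 5 BY4741 libraries (-0.40), and PHO89 with edgeR (-0.79) and against 5 BY4741 libraries (-0.77). For rrp6Δ, PHO86 lost its call with the compared groups only (-0.20) and turned to 0.013 against 5 BY4741 libraries. The PHO89 difference of responses turned to -0.31 with a pseudocount of 5. Against 5 BY4741 libraries the ΔP values, which have no test, kept their direction and moved to 0.71 for PHO84, 1.51 for PHO89 and 0.038 for PHO86. Leaving out single libraries gave -0.31 to -0.22 for PHO86 in spl2Δ at 7.2 mM, -0.20 to -0.20 for PHO86 in rrp6Δ, -0.11 to 0.23 for PHO89 in the difference of responses, and -0.035 to 0.027 for PHO84 in spl2Δ at 0 mM. Features past the threshold numbered 4068 for BY4741 without phosphate (2313 after TMM, 2295 with edgeR, 2188 with DESeq2), 3984 for spl2Δ without phosphate (2639 after TMM, 2549 with DESeq2), and 3832 for bmh1Δ (164 against 5 BY4741 libraries). They numbered 30 for spl2Δ at 7.2 mM (81 with the compared groups only, 112 with DESeq2; leaving out single libraries 16 to 65: 51 without BY4741 library 10, 16 without library 13, 17 without spl2Δ library 7, 65 without library 18). For spl2Δ at 0 mM there were 789 (228 to 914: 369 without BY4741 library 14, 228 without library 16, 282 without spl2Δ library 19, 474 without library 20). For the difference of responses there were 882 (506 to 1080: 506 without BY4741 library 16 at 0 mM, 508 without spl2Δ library 7, 537 without spl2Δ library 19). No paired analysis was possible because library numbers are not shared between groups. PHO89 at 7.2 mM rests on 50 to 185 reads outside BY4741 ΔP, which limits its precision; reads are not independent molecules.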
